A study of Homo sapiens with 12 samples.

Results

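The genes described here are the ZNF genes of 19p12, a stretch of the short arm of chromosome 19 that holds one of the largest clusters of zinc finger genes in the human genome. They were chosen by position and name, as protein-coding genes whose symbol starts with ZNF and whose GENCODE start lies between 19.5 and 24.5 Mb on chromosome 19 of GRCh38. The rule gave 37 genes out of 61533 gene IDs in the files, of which 19967 are protein-coding. The cluster was proposed for study with its levels in these libraries already known, so its levels and fold changes are given as a description. Calls from the fit across all genes are counted for the members without being read as support, and only their transcript usage, which the rule did not use, is given with p-values.

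Total RNA of 3 cell lines was sequenced, in 4 libraries per line. PEO-4 came from ascites of a high-grade serous ovarian carcinoma that had become resistant to platinum, and it was grown in RPMI 1640. SKOV-3 is an ovarian carcinoma line from ascites, labelled serous cystadenocarcinoma and described as clear cell carcinoma in the study, and it was grown in McCoy's 5A. T1074 is a line of ovarian surface epithelial cells immortalized with SV40, grown in Prigrow I, and it served as the non-cancer line. All lines are labelled wild type, none was treated, and every medium held fetal bovine serum. Each group is a single line, so that a difference between lines cannot be told apart from a difference in medium or origin, and it stands for these lines and not for tumours. Whether the replicates were separate cultures was not stated, and the errors given here measure only the spread between these libraries.

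A zinc finger protein of this family binds DNA through a row of C2H2 fingers, each of which contacts a few bases, and most members carry a KRAB domain at the other end. The KRAB domain recruits TRIM28, which brings the histone methyltransferase SETDB1 and HP1 proteins and so lays down silent chromatin. Many KRAB zinc finger proteins bind retrotransposons, and the 19p12 genes multiplied by tandem duplication in the primate lineage. ZNF91 and ZNF93 are known from human stem cells as repressors of retrotransposons, ZNF91 of SVA and ZNF93 of L1 elements. For most of the other members no target is given here, and they are named only as zinc finger genes.

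From the chromosome's end towards the centromere the members were ZNF101, ZNF14, ZNF506, ZNF253, ZNF93, ZNF682, ZNF90, ZNF486, ZNF737, ZNF626, ZNF66, ZNF85, ZNF430, ZNF714, ZNF431, ZNF708, ZNF738, ZNF493, ZNF429, ZNF100, ZNF43, ZNF208, ZNF257, ZNF676, ZNF729, ZNF98, ZNF492, ZNF99, ZNF723, ZNF728, ZNF730, ZNF724, ZNF91, ZNF675, ZNF681, ZNF726 and ZNF254. The first, ZNF101, starts at 19668796 and the last, ZNF254, at 24033405. The nearest ZNF genes outside the window lie far from its limits. ZNF333, the last one before it, starts at 14689801 and averaged 11.5 CPM in PEO-4, 11.5 CPM in SKOV-3 and 11.6 CPM in T1074. ZNF536, the first one after it, starts at 30224891 on the other arm and averaged 0.0 CPM in PEO-4, 0.0542 CPM in SKOV-3 and 0.0645 CPM in T1074. CPM is the expected count of a gene relative to a library size scaled with TMM factors, and it serves to compare libraries, whereas levels of different genes are compared in TPM, a value per length.

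The longest coding sequences of the members, translated from GENCODE 44, predict proteins of 375 to 1280 residues. They held 5 to 36 C2H2 fingers by the spacing of cysteines and histidines, with a median of 13. ZNF208 had 36 fingers, ZNF729 had 34 and ZNF91 had 31, whereas ZNF738 had 5. A KRAB A box, searched as F, any residue, DVA, any 2 residues and F, was found in 30 members and was not found with this pattern in 7, ZNF682, ZNF714, ZNF738, ZNF257, ZNF729, ZNF492 and ZNF99.

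The members also shared a promoter element. RefSeq promoters (GRCh38.p14, 300 bases a gene) matched 29 of the 37 members by symbol. All 29 held the 8 bases TCCAATCA on the strand of the gene, a run that was found by looking through these same promoters. Over all 34796 promoters, searched on both strands, 1.55% held it, 539 in number. It stood as 1 copy in 14 members and as 2 or more copies in 15, between 88 and 24 bases before the start. The promoters printed here are those of ZNF208, which was high in PEO-4 only, ZNF681 and ZNF626, which were near absent in T1074, and ZNF714, which was highest in T1074. Each runs from 150 bases before the start to 50 bases from it, on the strand of the gene, with the 8 bases in capitals.
ZNF208 (chr19:22010894-22011093, minus strand): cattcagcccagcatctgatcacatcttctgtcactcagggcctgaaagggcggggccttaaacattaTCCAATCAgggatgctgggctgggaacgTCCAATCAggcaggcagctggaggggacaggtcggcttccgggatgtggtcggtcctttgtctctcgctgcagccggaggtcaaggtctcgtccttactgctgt
ZNF681 (chr19:23758842-23759041, minus strand): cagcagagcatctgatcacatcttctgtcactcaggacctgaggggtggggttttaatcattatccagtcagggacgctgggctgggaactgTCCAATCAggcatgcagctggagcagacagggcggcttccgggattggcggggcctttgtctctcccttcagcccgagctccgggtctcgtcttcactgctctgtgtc
ZNF626 (chr19:20661522-20661721, minus strand): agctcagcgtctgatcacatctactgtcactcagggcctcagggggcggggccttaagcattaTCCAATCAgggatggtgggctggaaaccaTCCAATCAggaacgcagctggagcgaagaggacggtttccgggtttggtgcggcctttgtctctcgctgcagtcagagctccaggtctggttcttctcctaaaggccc
ZNF714 (chr19:21082053-21082252, plus strand): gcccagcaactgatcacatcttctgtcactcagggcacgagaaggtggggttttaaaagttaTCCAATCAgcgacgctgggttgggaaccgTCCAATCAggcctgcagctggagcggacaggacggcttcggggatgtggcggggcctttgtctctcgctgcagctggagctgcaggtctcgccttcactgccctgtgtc

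ZNF714, the member of highest TPM in T1074, and ZNF208, near 0 there, both hold 2 copies in the stretch shown. On either strand, the element was present in 24 of 45 promoters of ZNF genes of chromosome 19 before the window (53.3%), in 0 of 141 after it, and in 18 of 212 on other chromosomes (8.5%). Of the motifs searched on both strands, CCAAT, which lies within the element, was in all 29 members against 34.6% of all promoters. CGGAAG, the core of ETS sites, was in 21 members (72.4%) against 19.4% of all promoters. The GC box GGGCGG was in 22 members (75.9%) against 44.9%, TATAAA in 3 (10.3%) against 11.6%, and the E box CACGTG in 0 against 7.2%. The member promoters held 8 to 18 CG dinucleotides, with a median of 10 against 14 over all promoters. A match describes these letters only and shows no binding.

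Depth ranged over 38690954 to 47148161 expected counts for the PEO-4 libraries, over 47340136 to 55739060 for SKOV-3 and over 19780836 to 38583368 for T1074, whose replicate 1 was the shallowest. The carcinoma markers PAX8, EPCAM and CDH1 were at 96.0 to 167.8 CPM in PEO-4 and 21.6 to 105.5 CPM in SKOV-3, and at or under 0.452 CPM in T1074. The keratins of the same list did not follow that split. KRT8 was at 498.9 to 785.7 CPM in PEO-4, 348.5 to 552.6 CPM in SKOV-3 and 357.7 to 1036 CPM in T1074, and KRT18 at 291.1 to 444.5 CPM in PEO-4, 126.9 to 177.4 CPM in SKOV-3 and 207.6 to 554.5 CPM in T1074. KRT19 was at 795.6 to 1343 CPM in PEO-4, 86.2 to 274.6 CPM in SKOV-3 and 38.2 to 121.6 CPM in T1074. WT1 was at 144.4 to 178.0 CPM in PEO-4, 0.574 to 1.52 CPM in SKOV-3 and 14.5 to 37.1 CPM in T1074. The mesothelial marker CALB2 was at 0.0241 CPM or less in PEO-4, 0.273 to 0.389 CPM in SKOV-3 and 8.21 to 40.0 CPM in T1074, and UPK3B and MSLN were highest in PEO-4. MUC16 was at 535.5 to 630.0 CPM in PEO-4 but at or under 0.471 CPM in SKOV-3 and 0.321 CPM in T1074. VIM, a stromal marker, was at no more than 0.151 CPM in PEO-4, at 983 to 2435 CPM in SKOV-3 and at 459 to 806 CPM in T1074, and COL1A1 and PDGFRB were highest in T1074. COL1A2, of the same list, was at 0.0430 to 0.0865 CPM in PEO-4, 1.07 to 6.16 CPM in SKOV-3 and 0.220 to 1.44 CPM in T1074. The leukocyte markers PTPRC and CD3E did not exceed 0.294 CPM in any library.

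The members together took 0.0703% to 0.0787% of all counts of a library in PEO-4, between 0.0315% and 0.0362% in SKOV-3 and between 0.0227% and 0.0270% in T1074. Their summed level was 796.8, 762, 754.5 and 802.6 CPM in PEO-4, 390.3, 375.7, 352.5 and 335.8 CPM in SKOV-3 and 243.6, 222.8, 235.4 and 213.6 CPM in T1074. The lines did not overlap, and the mean of PEO-4, 779 ± 24.2 CPM, was 3.40 times that of T1074, 229 ± 13.3 CPM (SD, n = 4). The mean of SKOV-3, 364 ± 24.2 CPM, was 1.59 times that of T1074, and that of PEO-4 was 2.14 times that of SKOV-3. ZNF91 alone gave 20.6% to 26.7% of the sum in PEO-4, between 8.42% and 10.3% in SKOV-3 and between 5.30% and 11.7% in T1074. Without it, PEO-4 was still 2.84 times T1074, SKOV-3 was 1.58 times T1074 and PEO-4 was 1.80 times SKOV-3. Fewer cells that use a gene and less RNA of it per cell cannot be told apart in these bulk libraries.

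On a scale per length the differences were smaller. TPM, the deposited value that divides counts by transcript length and scales each library to the same total, summed to 72.5 ± 8.57 in PEO-4, 46.2 ± 5.12 in SKOV-3 and 40.6 ± 7.87 in T1074 (SD, n = 4). The SKOV-3 libraries, at 39.8 to 52.2 TPM, overlapped those of T1074, at 33.1 to 51.1 TPM. The TPM scale moved the log2 ratio of the median gene by -0.76 for PEO-4 against T1074, by -0.55 for SKOV-3 against T1074 and by -0.22 for PEO-4 against SKOV-3, compared with the CPM scale over 15008 genes. Relative to these shifts the log2 ratios of the TPM sums were 1.60, 0.73 and 0.87, against 1.77, 0.67 and 1.10 for the CPM sums.

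On the TPM scale, which allows genes to be compared, the order of the members differed between lines. ZNF91 led in PEO-4 with 12.7 ± 1.48 TPM, followed by ZNF208 with 5.67 ± 0.488 and ZNF506 with 4.93 ± 0.973 TPM, the last pair differing by less than their spread. ZNF486 with 3.75 ± 1.11, ZNF91 with 3.46 ± 0.459 and ZNF506 with 3.35 ± 0.214 TPM led in SKOV-3, also within their spread. ZNF714 led in T1074 with 6.58 ± 1.73 TPM, above ZNF724 with 3.36 ± 1.23 and ZNF85 with 2.79 ± 0.846 TPM. The median member had 1.68 TPM in PEO-4, 1.15 TPM in SKOV-3 and 0.57 TPM in T1074.

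An expected count over 0 in 3 or more of a line's 4 libraries was found for 36 members in PEO-4, 35 in SKOV-3 and 30 in T1074. With an expected count of at least 10 the numbers were 33, 33 and 27, in the same order of lines. Mean levels below 1 CPM, a limit set after the values were seen, were found for 4 members in PEO-4, 6 in SKOV-3 and 14 in T1074. In T1074 ZNF737, at 0.796 CPM, lay just under this limit and ZNF429, at 1.02 CPM, just above it.

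In T1074, 10 of these 14 members were neighbours. From ZNF208 to ZNF730, over 1.21 Mb between 21932958 and 23147221, every member averaged 0.284 CPM or less in T1074, and the same 10 formed the run at a limit of 0.5 or 2 CPM. On either side of the run the levels in T1074 were 10.2 ± 2.03 CPM for ZNF43 and 16.8 ± 2.28 CPM for ZNF724 (SD, n = 4). Per length, the 10 members averaged 0.0325 TPM or less in T1074, where ZNF43 averaged 1.54 ± 0.168 TPM and ZNF724 3.36 ± 1.23 TPM (SD, n = 4). The same 10 members reached 71.4 CPM in PEO-4 and 8.08 CPM in SKOV-3. Inside the run ZNF729, ZNF99, ZNF723 and ZNF728 were also below 1 CPM in both carcinoma lines, and ZNF208 and ZNF98 in SKOV-3. The plot of levels along the cluster shows the gap in T1074.

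**Figure D1:**
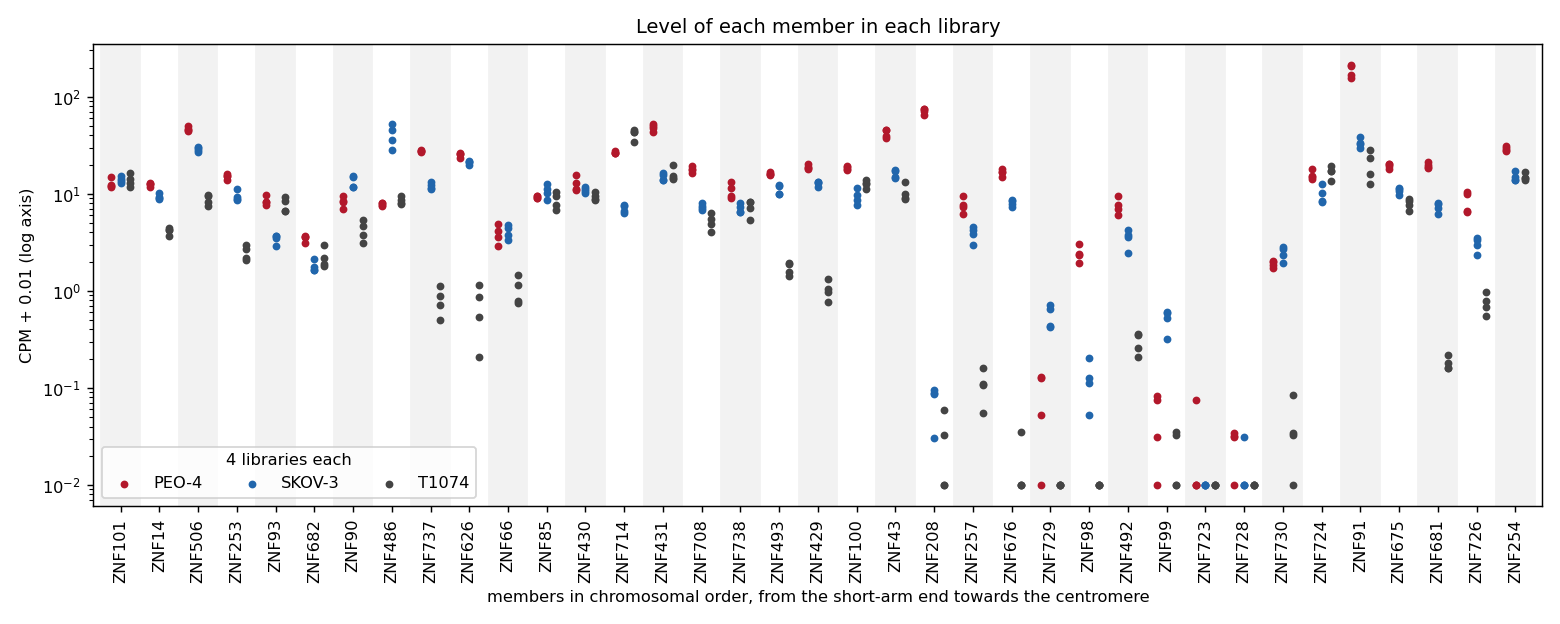
CPM + 0.01 on a log axis of all 37 members in chromosomal order, with 1 point for each of the 4 libraries of PEO-4 (red), SKOV-3 (blue) and T1074 (dark grey). From ZNF208 to ZNF730 the T1074 points lie at or below 0.348 CPM, whereas ZNF43 and ZNF724 beside the run average 10.2 and 16.8 CPM in T1074.

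ZNF208 was high in PEO-4 only. It was at 74.3, 71.2, 64.9 and 75.2 CPM in PEO-4, at 0.078, 0.0769, 0.0856 and 0.0205 CPM in SKOV-3, against 0, 0.0229, 0 and 0.0497 CPM in T1074. In counts this was 11987 reads over the 4 PEO-4 libraries, 13 over those of SKOV-3 and 3 over those of T1074. All PEO-4 libraries were thus over 60 CPM and all others under 0.1 CPM. The ratio of PEO-4 to T1074 was 3432, with an exact 95% counting interval of 1174 to 16640, and the fitted log2 difference of PEO-4 from SKOV-3 was 10.03 (standard error 0.25; 9.74 to 13.99 over the alternatives). Of the 75-base stretches of ZNF208, 20.4% also occur in ENSG00000279377, an overlapping locus of unknown kind, so that its reads were in part divided by estimate.

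ZNF676 and ZNF257, neighbours in the run, were present in both carcinoma lines. ZNF676 was at 18.0, 16.6, 14.9 and 16.6 CPM in PEO-4, at 8.42, 8.59, 7.39 and 7.93 CPM in SKOV-3, against 0, 0, 0 and 0.0249 CPM in T1074. The counts were 2765 in PEO-4, 1611 in SKOV-3 and 1 in T1074, which gave ratios to T1074 of 2375 for PEO-4 (exact 95% interval 426 to 93840) and 1172 for SKOV-3 (210 to 46300). The lines did not overlap for ZNF676, and PEO-4 lay above SKOV-3 by a log2 difference of 1.03 (standard error 0.14). ZNF257 was at 6.12, 9.55, 7.69 and 7.31 CPM in PEO-4, at 4.58, 4.21, 3.88 and 2.93 CPM in SKOV-3, against 0.1, 0.0458, 0.098 and 0.149 CPM in T1074. Its log2 fold changes against T1074 were 6.26 in PEO-4 and 5.29 in SKOV-3 (standard errors 0.30 and 0.30).

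ZNF98 was found mainly in PEO-4. Its level was 1.93, 3.04, 2.32 and 2.40 CPM in PEO-4 and 0.195, 0.115, 0.0428 and 0.102 CPM in SKOV-3, and it had 0 counts in the 4 T1074 libraries. Against a floor of 3 counts per library, 0.0918 CPM on average in T1074, ZNF98 was at least 26.4-fold higher in PEO-4 and at least 1.24-fold higher in SKOV-3. ZNF98 shares 29.2% of its 75-base stretches with ZNF492, which in turn shares 23.0% with ZNF98, and the split of reads between them is uncertain. ZNF492 averaged 7.57 ± 1.45 CPM in PEO-4, 3.52 ± 0.759 CPM in SKOV-3 and 0.284 ± 0.0734 CPM in T1074 (SD, n = 4).

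ZNF730, at the other end of the run, had a lower mean in PEO-4 than in SKOV-3, with libraries that overlapped. It was at 1.85, 2.00, 1.98 and 1.73 CPM in PEO-4, at 2.83, 2.69, 2.35 and 1.91 CPM in SKOV-3, against 0, 0.0229, 0.0245 and 0.0746 CPM in T1074. Both carcinoma lines lay above T1074 in every library, by log2 fold changes of 5.66 (PEO-4) and 6.04 (SKOV-3), with standard errors of 0.38 and 0.37.

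The remaining members of the run had few counts. ZNF729 was at 0 to 0.121 CPM in PEO-4, at 0.41 to 0.702 CPM in SKOV-3, against 0 in T1074, which makes it at least 5.92-fold higher in SKOV-3 than in T1074. ZNF99 was at 0 to 0.0724 CPM in PEO-4, 0.307 to 0.596 CPM in SKOV-3 and 0 to 0.0249 CPM in T1074, with 7, 100 and 2 counts per line. These are members for which SKOV-3 lay above both other lines in every library, though at under 1 CPM. ZNF723 had 3 counts in PEO-4 and 0 in the other lines, and ZNF728 had 3, 1 and 0, so that neither passed the filter on low counts. A count of 0 in a library allows up to 0.0879 CPM in PEO-4, 0.0642 CPM in SKOV-3 and 0.151 CPM in T1074. Intervals and floors cover counting error only.

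ZNF681 lies outside the run, between ZNF675 and ZNF726, and averaged 0.025 TPM in T1074. It was at 18.3, 21.4, 19.8 and 18.97 CPM in PEO-4, at 7.78, 8.01, 7.19 and 6.19 CPM in SKOV-3, against 0.15, 0.206, 0.172 and 0.149 CPM in T1074. The log2 fold changes of ZNF681 were 6.81 in PEO-4 and 5.38 in SKOV-3 (standard errors 0.18 and 0.18). ZNF726 beside it averaged 8.38 ± 2.08 CPM in PEO-4, 3.03 ± 0.514 CPM in SKOV-3 and 0.737 ± 0.174 CPM in T1074 (SD, n = 4).

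ZNF737 and ZNF626, neighbours towards the chromosome's end, were also low in T1074. ZNF737 averaged 27.8 ± 0.512 CPM in PEO-4, 12.1 ± 0.976 CPM in SKOV-3 and 0.796 ± 0.266 CPM in T1074. ZNF626 next to it averaged 25.1 ± 1.28 CPM in PEO-4, 21.0 ± 0.761 CPM in SKOV-3 and 0.682 ± 0.408 CPM in T1074 (SD, n = 4). For both of these the carcinoma lines lay over 10 CPM in every library and T1074 at 1.14 CPM or less. ZNF493 and ZNF429 had log2 fold changes of 3.26 and 4.19 in PEO-4 and of 2.72 and 3.62 in SKOV-3 against T1074 (standard errors 0.14 to 0.15).

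ZNF91, the repressor of SVA elements, had the highest TPM of the members in PEO-4. It was at 212.5, 157.0, 165.9 and 207.9 CPM in PEO-4, at 33.1, 38.9, 29.7 and 32.5 CPM in SKOV-3, against 28.4, 16.1, 12.5 and 23.6 CPM in T1074. PEO-4 stood clear of both other lines, and the lowest SKOV-3 library lay close above the highest T1074 library. The log2 fold change of ZNF91 was 3.21 in PEO-4 (standard error 0.22) and 0.74 in SKOV-3 (standard error 0.21) against T1074, and PEO-4 exceeded SKOV-3 by 2.47 (standard error 0.22). ZNF93, the repressor of L1 elements, followed another order. It was at 8.26, 9.82, 7.67 and 8.26 CPM in PEO-4, at 3.64, 3.46, 3.68 and 2.89 CPM in SKOV-3, against 9.28, 8.48, 6.64 and 6.57 CPM in T1074. PEO-4 and T1074 overlapped, with a log2 difference of 0.14 (standard error 0.15), and SKOV-3 lay below both, with a log2 fold change of -1.17 against T1074 (standard error 0.16).

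ZNF506, ZNF431 and ZNF43 were shown for their high mean CPM over all libraries. ZNF506 was at 45.1, 44.1, 50.2 and 46.6 CPM in PEO-4, at 28.3, 30.5, 26.7 and 29.3 CPM in SKOV-3, against 9.48, 7.4, 9.72 and 8.21 CPM in T1074. Its 3 lines did not overlap. ZNF431 was at 43.6, 50.4, 52.8 and 48.1 CPM in PEO-4, at 14.0, 15.5, 14.0 and 16.3 CPM in SKOV-3, against 15.2, 14.7, 19.9 and 14.2 CPM in T1074, so that only PEO-4 stood apart, by 1.61 over T1074 (log2, standard error 0.12). ZNF43 was at 46.0, 39.6, 37.3 and 45.2 CPM in PEO-4, at 17.7, 17.2, 14.6 and 14.8 CPM in SKOV-3, against 9.88, 8.73, 13.2 and 9.03 CPM in T1074. Its log2 fold changes against T1074 were 2.04 in PEO-4 and 0.65 in SKOV-3 (standard errors 0.14 and 0.14).

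ZNF714 was the only member below T1074 in every library of both carcinoma lines. It was at 26.6, 27.4, 26.2 and 26.4 CPM in PEO-4, at 7.66, 6.32, 6.66 and 7.42 CPM in SKOV-3, against 43.5, 45.4, 42.9 and 34.4 CPM in T1074. Every T1074 library lay above every PEO-4 library and every PEO-4 library above every SKOV-3 library, with log2 fold changes against T1074 of -0.64 in PEO-4 and -2.57 in SKOV-3 (standard errors 0.11 and 0.11). ZNF486 stood out in SKOV-3. It was at 7.41, 8.11, 7.65 and 8.09 CPM in PEO-4, at 52.1, 36.0, 45.5 and 28.2 CPM in SKOV-3, against 9.58, 7.81, 7.98 and 8.55 CPM in T1074. The SKOV-3 libraries spread widely but all lay above the others, by a log2 fold change of 2.26 against T1074 (standard error 0.17).

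**Figure D2:**
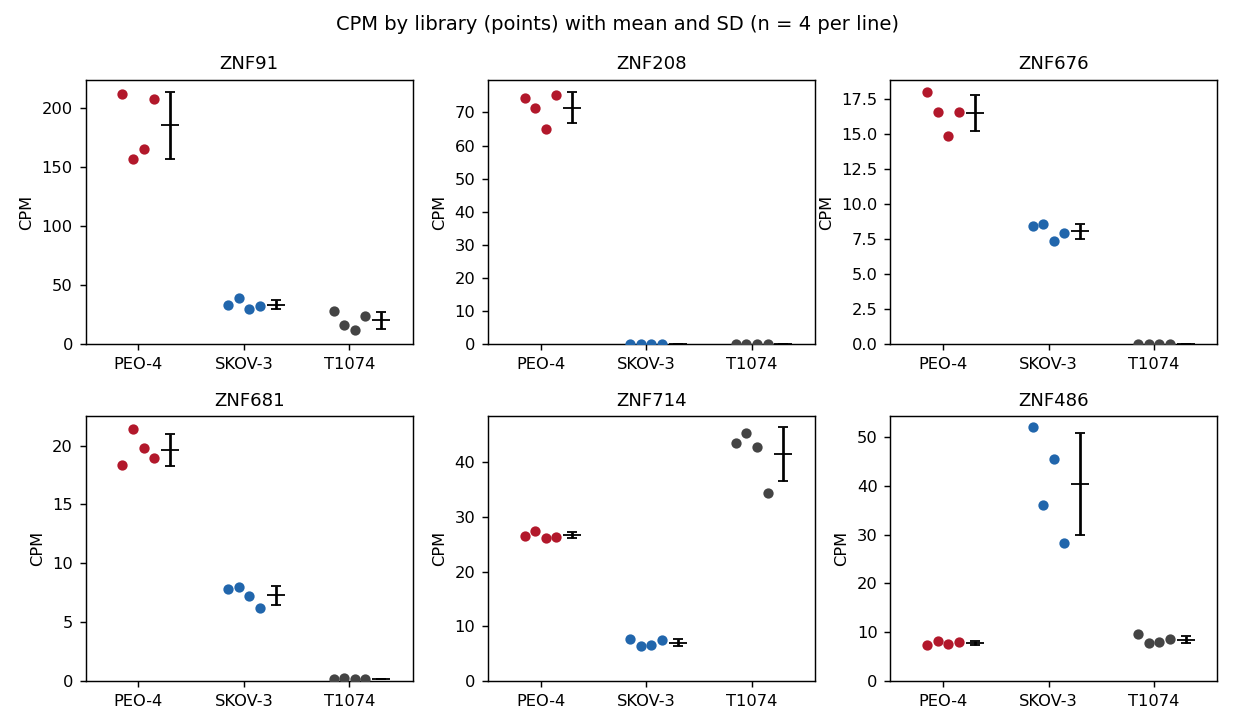
CPM of ZNF91, ZNF208, ZNF676, ZNF681, ZNF714 and ZNF486 in each library (points) of PEO-4, SKOV-3 and T1074, with the mean and SD of the 4 libraries (black). ZNF208 is high in PEO-4 alone, at 64.9 to 75.2 CPM, ZNF714 is highest in T1074 and ZNF486 is highest in SKOV-3.

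ZNF101 and ZNF85 overlapped in all 3 lines. ZNF101 averaged 12.8 ± 1.48 CPM in PEO-4, 14.0 ± 1.04 CPM in SKOV-3 and 13.8 ± 2.01 CPM in T1074, and ZNF85 9.27 ± 0.272 CPM in PEO-4, 10.7 ± 1.68 CPM in SKOV-3 and 8.57 ± 1.62 CPM in T1074 (SD, n = 4). ZNF430 and ZNF738 had log2 fold changes of 0.45 and 0.59 in PEO-4 and of 0.23 and -0.02 in SKOV-3 against T1074. ZNF738 shares 15.9% of its 75-base stretches with a pseudogene, ENSG00000213976, and ZNF724 shares 42.6% with a read-through gene, ENSG00000283201, so that both are uncertain. ZNF724 lay below T1074 in every SKOV-3 library and overlapped T1074 in PEO-4, with log2 fold changes of -0.11 in PEO-4 and -0.78 in SKOV-3 (standard errors 0.15 and 0.15). No other member shared over 6.5% of its stretches with another gene.

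Members that were higher in both carcinoma lines than in T1074 by moderate amounts included ZNF14, ZNF253 and ZNF708, with log2 fold changes of 1.58, 2.59 and 1.81 in PEO-4 and of 1.16, 1.93 and 0.53 in SKOV-3. ZNF675, known as an inhibitor of TRAF6 signalling, had 1.31 in PEO-4 and 0.45 in SKOV-3, and ZNF66 had 1.94 in PEO-4 and 2.02 in SKOV-3. ZNF90 had 0.98 in PEO-4 and 1.68 in SKOV-3. ZNF682, ZNF100 and ZNF254 were higher than T1074 in PEO-4, by 0.68, 0.54 and 0.95, whereas their values in SKOV-3 were -0.29, -0.43 and -0.0042. Among these 9 members, PEO-4 had a lower mean than SKOV-3 for ZNF90, at 8.27 ± 1.05 CPM in PEO-4 and 13.4 ± 1.86 CPM in SKOV-3, and for ZNF66, at 3.84 ± 0.83 CPM in PEO-4 and 4.07 ± 0.662 CPM in SKOV-3 with overlapping libraries (SD, n = 4).

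**Figure D3:**
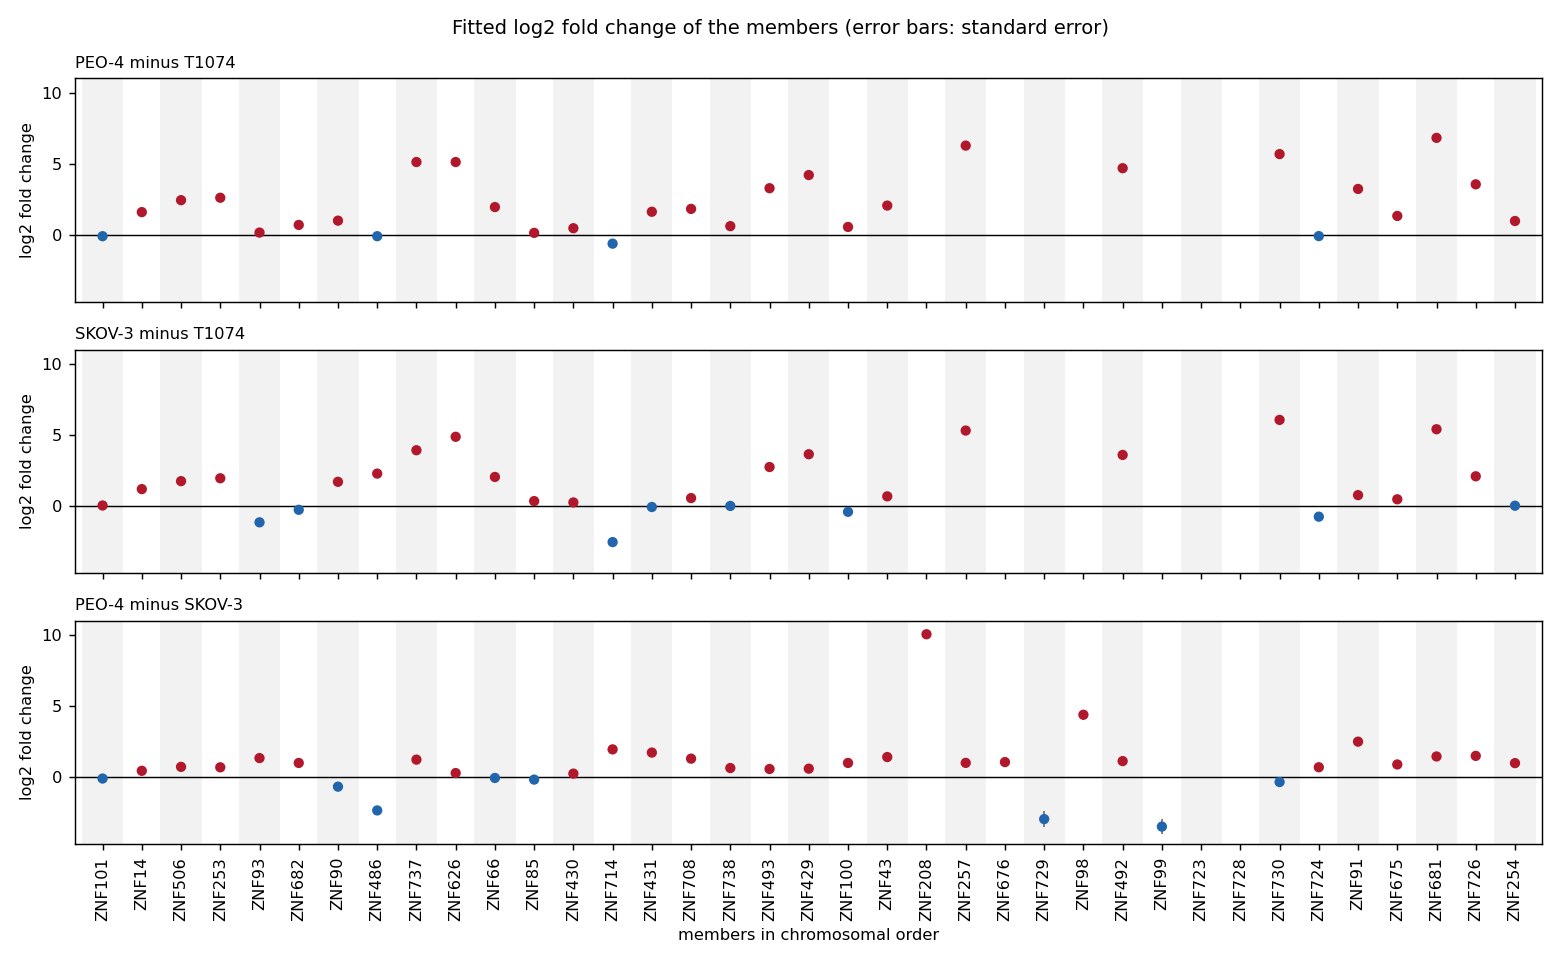
Fitted log2 fold change of each member in chromosomal order, with its standard error, for PEO-4 minus T1074 (top), SKOV-3 minus T1074 (middle) and PEO-4 minus SKOV-3 (bottom), in red above 0 and in blue below. Points are left out for ZNF723 and ZNF728, which had too few counts, and where a line of the pair had 3 counts or fewer (both upper panels for ZNF208, ZNF676, ZNF729, ZNF98 and ZNF99), and most error bars are smaller than the points. The largest value drawn is that of ZNF208, 10.03, in PEO-4 minus SKOV-3.

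By edgeR's quasi-likelihood test over 19898 genes, at a Benjamini-Hochberg adjusted p under 0.05, 35 members were tested. In PEO-4 against T1074, 28 were called higher and 1 lower, whereas 36.3% of all genes tested were called higher and 37.8% lower. In SKOV-3 against T1074, 23 members were called higher and 4 lower, beside 33.3% and 34.5% of all genes. In PEO-4 against SKOV-3, 25 were called higher and 4 lower, beside 38.5% and 36.7% of all genes. ZNF208 and ZNF98 passed the filter on low counts only through PEO-4, and ZNF729 and ZNF99 only through SKOV-3. ZNF729 was called higher in PEO-4 on 11 counts against 0 in T1074, with overlapping libraries. The counts of calls and the medians below rest on the values with which the cluster was proposed, and nothing is read from them. The members lower than T1074 were ZNF714 in PEO-4 and ZNF714, ZNF93, ZNF100 and ZNF724 in SKOV-3, and those lower in PEO-4 than in SKOV-3 were ZNF90, ZNF486, ZNF729 and ZNF99. The median log2 fold change of the 35 members was 1.94 in PEO-4 and 1.68 in SKOV-3 against T1074, and 0.86 between PEO-4 and SKOV-3, beside -0.01, -0.03 and 0.05 over all genes. With the members at 0 in T1074 set to their lower bounds where they had one, the median in SKOV-3 was 1.53 and the other medians did not move. ZNF729 had no bound in PEO-4, where its mean lay under the floor, and it kept its fitted log2 fold change of 4.56. A lower value for it in PEO-4 was not tried. The comparisons with T1074 share its libraries.

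ZNF genes elsewhere are given beside the members, in the same comparisons. Of all genes tested, 36.3% were called higher and 37.8% lower in PEO-4 against T1074, and 33.3% and 34.5% in SKOV-3. Of 48 genes before the window, 40 were called higher and 4 lower in PEO-4 against T1074, with a median log2 fold change of 1.45, and 31 higher and 0 lower in SKOV-3, with a median of 0.71. Of 161 genes tested after the window, 89 were higher and 16 lower in PEO-4 and 91 higher and 20 lower in SKOV-3, with medians of 0.44 and 0.45. On other chromosomes 108 of 249 ZNF genes were higher and 76 lower in PEO-4, and 77 higher and 89 lower in SKOV-3, with medians of 0.13 and -0.01. Between PEO-4 and SKOV-3 the medians were 0.96 before the window, -0.02 after it and 0.15 on other chromosomes. The difference of the members from these groups was not tested.

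Genes beside the members that carry no ZNF symbol were also compared. Of 12 other protein-coding genes of the window 10 were tested. In PEO-4 against T1074 6 were higher and 0 lower, beside 36.3% and 37.8% of all genes. In SKOV-3 against T1074 6 were higher and 1 lower, beside 33.3% and 34.5% of all genes. LPAR2, a receptor of lysophosphatidic acid, averaged 11.1 ± 0.566 CPM in PEO-4, 6.05 ± 0.287 CPM in SKOV-3 and 0.953 ± 0.366 CPM in T1074 (SD, n = 4), with a log2 fold change of 3.52 in PEO-4 (adjusted p = 3.66e-09, edgeR). ATP13A1, a P5A-type ATPase of the endoplasmic reticulum, rose in both, with log2 fold changes of 1.24 in PEO-4 (adjusted p = 3.54e-08) and 1.17 in SKOV-3 (adjusted p = 9.09e-08, edgeR). CILP2 was at 0.435 ± 0.113 CPM in PEO-4, 10.4 ± 2.98 CPM in SKOV-3 and 0.503 ± 0.158 CPM in T1074. Of 175 genes of the window that are not protein-coding, a group added after the data were seen, 31 passed the filter on low counts. In PEO-4 against T1074, 29 were higher and 0 lower, beside 36.3% and 37.8% of all genes. In SKOV-3 against T1074, 22 were higher and 3 lower, beside 33.3% and 34.5% of all genes. Some passed the filter only through a carcinoma line. BNIP3P28, for example, averaged 0.857 CPM in PEO-4, 0 CPM in SKOV-3 and 0.0057 CPM in T1074. Nothing is therefore read from these counts. Some of the 31 genes overlap members, and whether the counting used strand was not stated.

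The flanks on the chromosome, 34 protein-coding genes tested from the last 1 Mb before the window and from the stretch after it across the centromere, were compared in the same way. Over all genes tested, 38.5% were called higher and 36.7% lower in PEO-4 against SKOV-3. The shares were 36.3% and 37.8% in PEO-4 and 33.3% and 34.5% in SKOV-3 against T1074. Of the flank genes 5 (14.7%) were higher in PEO-4 and 25 (73.5%) lower than in SKOV-3, and their median log2 fold change was -0.76. Against T1074, 11 (32.4%) were higher and 9 (26.5%) lower in PEO-4, with a median of 0.15. In SKOV-3 against T1074, 24 (70.6%) were higher and 1 (2.94%) lower, with a median of 0.73. Among them TM6SF2, a protein of lipid export, averaged 0.0216 ± 0.0249 CPM in PEO-4, 19.3 ± 2.86 CPM in SKOV-3 and 0.151 ± 0.0522 CPM in T1074 (SD, n = 4; adjusted p = 7.31e-11 for SKOV-3 against T1074, edgeR), and GDF1, a ligand of the TGF-beta family, 1.37 ± 0.209 CPM in PEO-4, 5.601 ± 1.33 CPM in SKOV-3 and 0.45 ± 0.238 CPM in T1074 (adjusted p = 2.02e-07, edgeR). The flanks lie on both arms of the chromosome and were counted together. DNA copy number was not measured on either arm, and its part in these values was not tested.

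**Figure D4:**
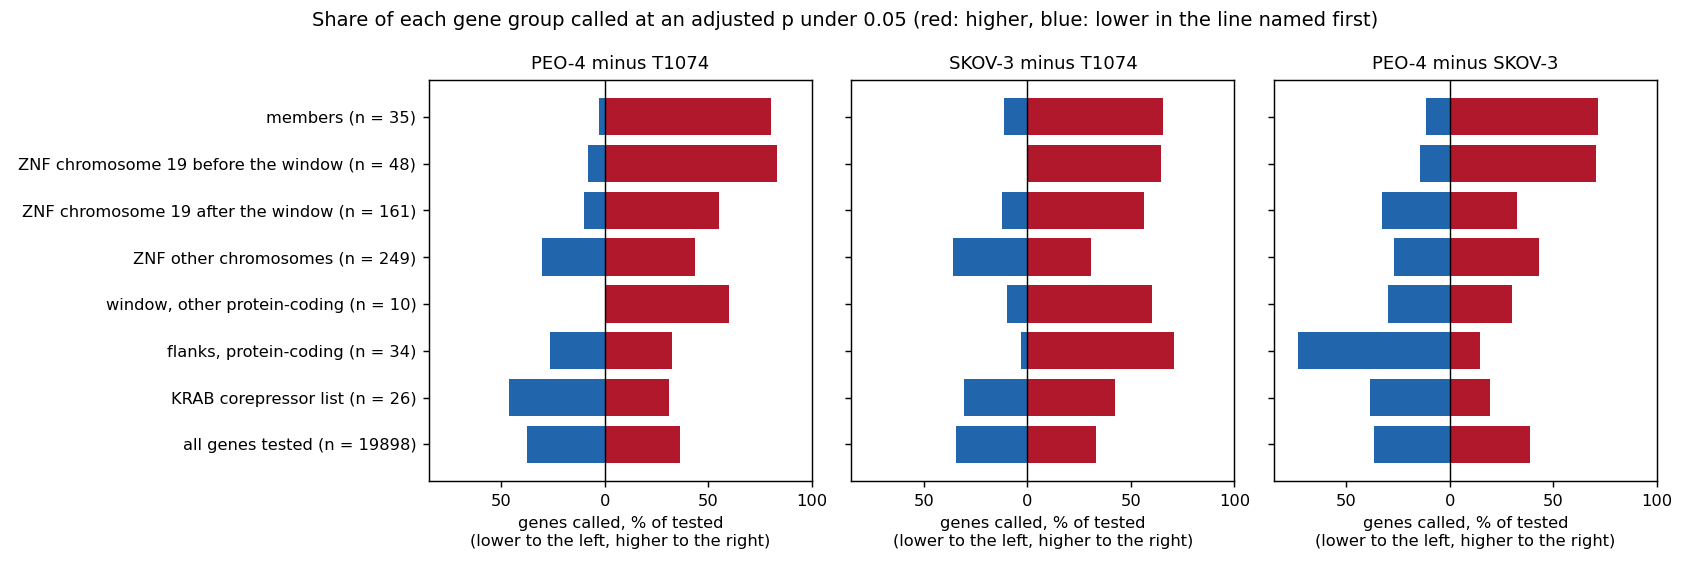
Percent of the tested genes of each group called higher (red, to the right) or lower (blue, to the left) in the line named first, at an adjusted p under 0.05, for the 3 pairs of lines. The members have 28, 23 and 25 of 35 genes to the right, beside 36.3%, 33.3% and 38.5% of all genes. The flanks have 25 of 34 genes to the left in PEO-4 minus SKOV-3, beside 36.7% of all genes.

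The partners of KRAB zinc finger proteins were counted in the same fit. From a list of 27 genes of the TRIM28 and heterochromatin machinery, 26 were tested. In PEO-4 against T1074 8 rose (30.8%) and 12 fell (46.2%), beside 36.3% and 37.8% of all genes. In SKOV-3 against T1074 11 rose (42.3%) and 8 fell (30.8%), beside 33.3% and 34.5% of all genes. In PEO-4 against SKOV-3 5 were higher (19.2%) and 10 lower (38.5%), beside 38.5% and 36.7% of all genes. Without T1074 replicate 2, 5 rose in PEO-4 against T1074. TRIM28, the corepressor itself, averaged 298 ± 26.4 CPM in PEO-4, 286 ± 34.8 CPM in SKOV-3 and 238 ± 20.2 CPM in T1074 (SD, n = 4). Its log2 fold change was 0.32 in PEO-4 (adjusted p = 0.0199, edgeR) and 0.26 in SKOV-3 (adjusted p = 0.0541, edgeR). UHRF1, which guides maintenance of DNA methylation, fell to 11.99 ± 4.44 CPM in PEO-4 and 19.1 ± 7.53 CPM in SKOV-3, against 153 ± 49 CPM in T1074 (adjusted p = 1.41e-07 and 1.12e-06, edgeR). DNMT3B, a de novo DNA methyltransferase, fell in PEO-4, at 2.44 ± 0.99 CPM, and rose in SKOV-3, at 49.3 ± 5.2 CPM, against 8.20 ± 2.37 CPM in T1074 (adjusted p = 4.15e-05 and 7.23e-07, edgeR). ATF7IP, a partner of SETDB1, was at 74.99 ± 2.85 CPM in PEO-4, 8.95 ± 0.458 CPM in SKOV-3 and 68.5 ± 11.4 CPM in T1074, and RESF1, a protein needed for silencing of retroviruses in mouse stem cells, at 26.9 ± 1.25 CPM in PEO-4, 1209 ± 107.5 CPM in SKOV-3 and 30.2 ± 3.5 CPM in T1074 (SD, n = 4). Both differed in SKOV-3 against T1074 (adjusted p = 6.65e-11 and 8.68e-13, edgeR).

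Which transcripts a member used is a measure that its total level does not fix, and it was tested with edgeR's diffSpliceDGE on the transcript counts. Of 12620 genes with at least 2 transcripts over the filter, 29 were members. In PEO-4 against T1074 7 members were called, beside 30.3% of all genes, in SKOV-3 against T1074 9, beside 30.4%, and in PEO-4 against SKOV-3 11, beside 40.0%. The counts depended on single libraries, since PEO-4 against T1074 had 4 without T1074 replicate 2, and PEO-4 against SKOV-3 had 7 without PEO-4 replicate 2, PEO-4 replicate 4 or SKOV-3 replicate 3. Reads that fit several transcripts were divided by estimate.

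ZNF85, whose total did not separate the lines, differed in its transcripts. The coding transcript ZNF85-202 made up 66.8 ± 5.77% of its counts in PEO-4, 22.6 ± 2.25% in SKOV-3 and 63.2 ± 10.5% in T1074, and ZNF85-201 2.36 ± 2.02% in PEO-4, 44.2 ± 8.22% in SKOV-3 and 9.20 ± 7.39% in T1074 (SD, n = 4). For both transcripts the SKOV-3 libraries did not overlap those of the other lines. The adjusted p of ZNF85 was 7.23e-09 for PEO-4 against SKOV-3 and 4.03e-05 for SKOV-3 against T1074 (at most 1.86e-06 and 0.0132 over the alternatives). For PEO-4 against T1074 it was 0.0171, with 0.0252 to 0.254 over the alternatives.

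ZNF90 and ZNF66 also set SKOV-3 apart. ZNF90-201, a coding transcript, made up 80.2 ± 2.11% of ZNF90 in PEO-4, 34.4 ± 2.81% in SKOV-3 and 71.7 ± 13.3% in T1074, and ZNF90-202, annotated as a target of nonsense-mediated decay, 10.9 ± 3.33%, 39.9 ± 6.39% and 17.8 ± 7.93% in the same lines (SD, n = 4). Its adjusted p was 0.000177 for PEO-4 against SKOV-3 and 0.0074 for SKOV-3 against T1074, at most 0.00188 and 0.0443 over the alternatives, and 0.457 for PEO-4 against T1074. ZNF66-203 made up 13 ± 4.66% of ZNF66 in PEO-4, 39.2 ± 4.18% in SKOV-3 and 11.8 ± 11% in T1074. ZNF66 had 29 to 46 counts in a T1074 library, so that its shares there rest on few reads. Its adjusted p was 0.0176 for PEO-4 against SKOV-3 (0.000318 to 0.0699 over the alternatives) and 0.0125 for SKOV-3 against T1074 (0.000281 to 0.0477).

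ZNF738 differed between all 3 lines. ZNF738-201 made up 29.0 ± 3.08% of it in PEO-4, 20.2 ± 1.22% in SKOV-3 and 10.4 ± 2.81% in T1074, and ZNF738-202 19.7 ± 3.01%, 13.01 ± 3.27% and 34.6 ± 7.65% (SD, n = 4). The lines did not overlap for ZNF738-201. The adjusted p of ZNF738 was 0.000633 for PEO-4 against T1074, 2.67e-05 for SKOV-3 against T1074 and 0.00427 for PEO-4 against SKOV-3, and it stayed at or under 0.0337 over the alternatives. ZNF738 shares stretches with a pseudogene, as given above, and the part of this in its shares was not tested.

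In ZNF91 the main coding transcript, ZNF91-201, made up 62.5 ± 2.08% in PEO-4, 62.6 ± 3.40% in SKOV-3 and 63.7 ± 3.80% in T1074. ZNF91-202 made up 34.6 ± 1.99%, 25.5 ± 2.77% and 30.8 ± 2.62%, and ZNF91-208, which has no coding sequence defined, 0.424 ± 0.183% in PEO-4, 5.20 ± 0.923% in SKOV-3 and 0.161 ± 0.0488% in T1074 (SD, n = 4). ZNF91 had an adjusted p of 2.15e-07 for PEO-4 against SKOV-3, 0.00016 for SKOV-3 against T1074 and 0.0046 for PEO-4 against T1074, which ranged to 0.00122, 0.0275 and 0.104 over the alternatives. ZNF506, ZNF726, ZNF737, ZNF676, ZNF93, ZNF101, ZNF675 and ZNF100 were called in at least 1 pair of lines too. ZNF208 was called against T1074 in both lines, where T1074 had 3 counts, so that its shares there cannot be read. A T1074 library held 14 to 45 counts of ZNF737 and 19 to 32 of ZNF726, so that their shares there rest on few reads.

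**Figure D5:**
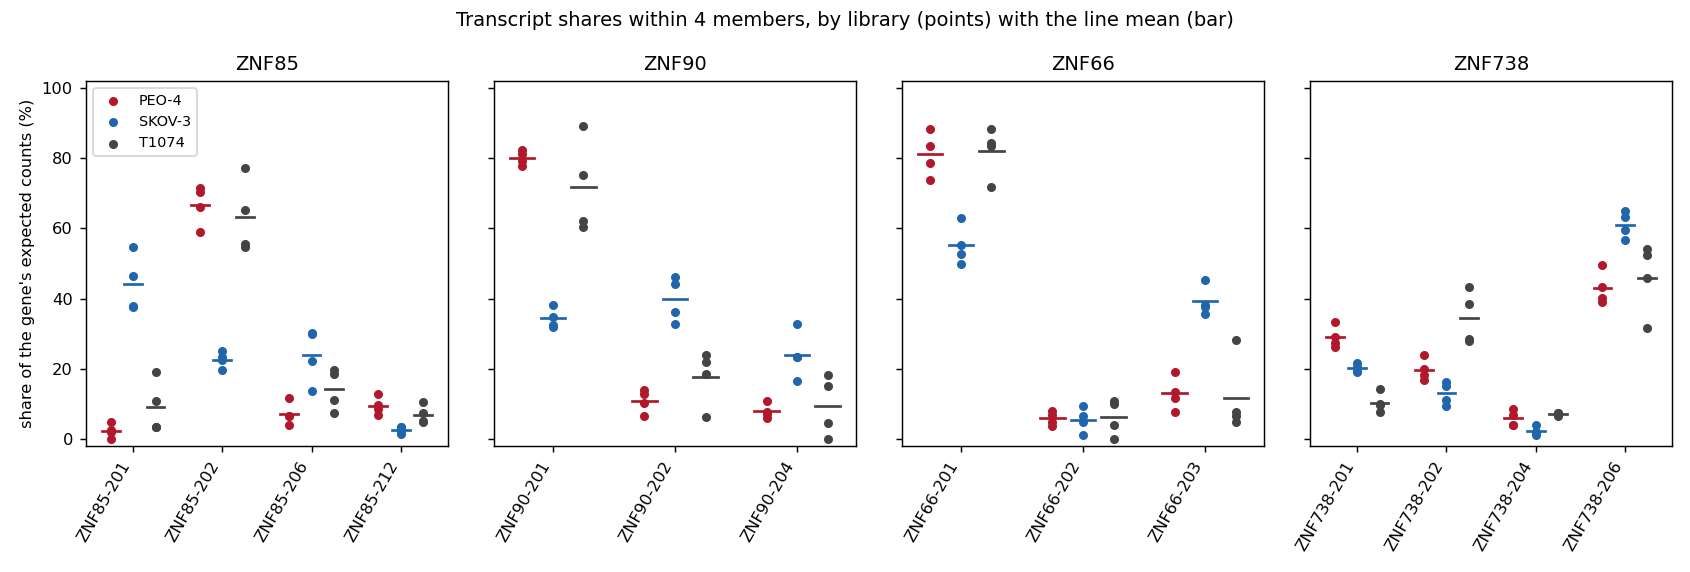
Share of the expected counts of ZNF85, ZNF90, ZNF66 and ZNF738 that was assigned to each tested transcript, in percent, in each library (points) of PEO-4, SKOV-3 and T1074, with the line mean (bar). ZNF85-201 lies at 37.6% to 54.8% in SKOV-3 and at or below 19.03% in the other lines, and ZNF90-201 at 31.9% to 38.2% in SKOV-3 and above 60% in the others.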

How the data were processed

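Total RNA of cultured cells was depleted of rRNA, made into directional libraries and sequenced in pairs. The authors used bcl2fastq 2.20.0.422, Trimmomatic 0.39, STAR 2.7.3a and RSEM 1.3.1 on hg38, per the submitters' processing notes and the study's methods. The authors deposited, for each of 244939 transcripts, an expected count (RSEM's estimate of its fragments, with shared reads divided) and a TPM value. Although the molecule is labelled protein, methods and values show RNA-seq.

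Expected counts were summed by gene and rounded. Of 61533 gene IDs, 61369 matched GENCODE 44 (GRCh38), which gave symbols and coordinates, and 164 did not. The quasi-likelihood test of edgeR 4.0.16 (R 4.3.3) was fitted to all 12 libraries by line, after filterByExpr and TMM scaling, with Benjamini-Hochberg adjustment over all genes and a threshold of 0.05. Standard errors come from the fold change and its F statistic. Transcript usage was tested with diffSpliceDGE. The 18 pairs of replicates differed by more than sampling noise (chi-square per degree of freedom 25.2 to 314.2). The scripts were tested on simulated data.

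The cluster, its members and the lists were chosen with earlier results of these data known. Every library's value is given for the 6 members of highest mean CPM, the 5 of largest fold change per pair of lines among those with a line mean of at least 1 CPM, those at 0 in 1 line and at 1 CPM or more in another, ZNF91 and ZNF93. Of other lists, up to 4 genes of largest change and TRIM28 are named. Alternatives were RLE factors, library size only, DESeq2 1.42.0, a replicate block, other filters and thresholds, fits of 8 libraries, counts from length-scaled TPM, limma 3.58.1 for usage, and leaving out each library. The sum without ZNF91, other limits of low levels and the genes that are not protein-coding were added after the data were seen.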

Additional observations from a re-analysis of the deposited data

Results flagged for a closer look

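Levels of the members were searched for a library that stood far from the other 3 of its line, in 94 groups of 4 libraries with at least 10 counts in one of them. A single value was found, ZNF682 in PEO-4 replicate 1, at 3.08 CPM against 3.61 to 3.67 CPM in the other PEO-4 libraries (Dixon's ratio 0.894, above the critical value for 4 values). Chance alone would give about 1 such value in every 20 groups.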

How the results depend on the processing

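Most counts and fold changes held. Of 132 alternative counts of members called, 128 stayed within 1.5 times the value given, and of 856 alternative fold changes of the named members 24 moved beyond their error and 0 called ones changed sign. The cause of the changes below was not tested, except that stricter thresholds call fewer genes by construction. Where the log2 fold change also had to reach 1 in size, the members called lower were 0 in PEO-4 and 2 in SKOV-3 against T1074, and 13 members were higher in PEO-4 than in SKOV-3. Under the same threshold the KRAB partners called higher and lower were 2 and 3 in PEO-4 and 4 and 3 in SKOV-3 against T1074, and 1 and 4 in PEO-4 against SKOV-3. The flanks gave 7 and 2 in PEO-4 and 15 and 0 in SKOV-3 against T1074, and 2 and 14 in PEO-4 against SKOV-3. At an adjusted p of 0.01, 4 KRAB partners were higher in PEO-4 than in T1074, and usage was called for 4 members in PEO-4 against T1074 and 6 in PEO-4 against SKOV-3. Scaling by library size only moved the median of all genes by -0.16 in PEO-4 and -0.20 in SKOV-3 against T1074. It gave 5 KRAB partners higher in PEO-4 and 7 in SKOV-3, 3 flank genes lower in SKOV-3, and log2 ratios of the summed level of 1.61 in PEO-4 and 0.47 in SKOV-3, all against T1074. That ratio was 1.84 for PEO-4 against T1074 with RLE factors. In TPM the ratios were 0.84 and 0.18 for PEO-4 and SKOV-3 against T1074 and 0.65 for PEO-4 against SKOV-3. Without ZNF91 they were 1.51 for PEO-4 against T1074 and 0.85 for PEO-4 against SKOV-3. In PEO-4 against SKOV-3, 3 KRAB partners were higher with no filter beyond 1 count, and with at least 1 CPM in 4 libraries 8 were higher and 2 members lower. Leaving out 1 library at a time gave 5 to 9 KRAB partners higher in PEO-4 than in T1074 (5 without T1074 replicate 2), 4 to 7 members with a usage call in PEO-4 against T1074 and 7 to 11 in PEO-4 against SKOV-3. Leaving out any 1 PEO-4 library moved the median of all genes by 0.08 to 0.10 in PEO-4 against T1074.

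Replicate numbers did not pair the libraries, since the deviations of libraries with the same number correlated at -0.079 to 0.069 over 12 pairs, 0 of them over 0.1. With the replicate block the members called were 28 higher and 1 lower in PEO-4 and 23 and 4 in SKOV-3 against T1074, and 25 and 4 in PEO-4 against SKOV-3. With this block, usage calls numbered 6, 9 and 10 in the same comparisons. The shares of all genes called with the block are not given here, and nothing is read from these counts. Depth limits the members with few counts, ZNF723, ZNF728, ZNF99 and ZNF729, and the shallowest library, T1074 replicate 1, has a floor of 0.151 CPM.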
